A study of Mus musculus with 6 samples.

Results

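The collagens II, IX and XI form the fibrils of hyaline cartilage, and their chains are encoded by Col2a1, by Col9a1, Col9a2 and Col9a3, and by Col11a1 and Col11a2. These 6 genes were chosen by symbol, and all 6 were found among the 10189 genes of the table. Collagen II is a homotrimer of the Col2a1 product and makes up the bulk of the fibril. Collagen XI lies within the fibril and combines the Col11a1 and Col11a2 chains with a further chain that is also made from Col2a1. Collagen IX combines 1 chain from each of its 3 genes, sits on the fibril surface and links it to the surrounding matrix. Chondrocytes in monolayer culture are known to lose these transcripts and to gain fibroblast collagens such as collagen I.

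Total RNA of primary chondrocytes from 5-week-old C57BL/6 mice was sequenced. The 3 KO samples came from mice with a global homozygous deletion of the microRNA gene Mir34a (genotype MiR-34a -/-, allele Mir34atm1.2 Mrl), bred from heterozygotes, and the 3 wild-type samples from mice labelled wild type under the same model name. Cartilage of knees and hips was pooled and digested with collagenase, and the cells were grown in serum-containing medium until confluent, with no further treatment. Whether the samples within a genotype were separate animals or cultures is not stated in the labels. The p-values therefore refer to the spread among these 6 samples, and that spread may be technical. No row of the table is named Mir34a, and the genotype labels were not checked against it. Levels below are TMM-normalized CPM, read counts scaled to an effective library size, as the authors deposited them.

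The libraries held 989217 to 5266617 recovered reads, and 947081 to 1772185 when Rn45s, Lars2 and Mir6236 were left out. In wild type 1, 59.1% of the reads lay on the ribosomal precursor Rn45s, against 2.98% to 11.4% in the other 5. Of 20 chondrocyte markers, 16 had a row, among them Sox9, Acan and Comp, while Matn1, Matn4, Cnmd and Snorc had none. Their summed level was 1049 to 1858 in wild type and 1757 to 3578 CPM in KO, with overlap. Comp was the most abundant, at 489 to 1122 CPM in wild type and 863 to 2293 CPM in KO. Without Comp, the other 15 summed to 522 to 736 CPM in wild type and 692.5 to 1285 CPM in KO, also with overlap. Summed macrophage and leukocyte markers (15 of 15 measured) spanned 5339 to 6288 CPM in wild type and were 1064, 15214 and 3522 CPM in KO 1, KO 2 and KO 3. Lyz2 was the most abundant of them, with 12165 CPM in KO 2. Without Lyz2, the other 14 summed to 1691 to 2589 CPM in wild type. In KO 1, KO 2 and KO 3 they summed to 470, 3049 and 1765 CPM. Fibroblast markers (9 of 10) summed to 5999 to 7432 in wild type and 4185 to 5120 CPM in KO, but 4 of the 9 had log2 fold changes above 0, and without Col3a1 the sums overlapped (2840 to 3213 and 2611 to 3061 CPM). Mural cell markers (7 of 9) summed to 572 to 732 CPM in wild type and to 274 to 484 CPM in KO. The sum was lower in each KO library, also without Acta2. Of the 7, 2 went the other way, Cspg4 (log2 fold change 1.115, higher in each KO library) and Pdgfrb (0.81, with overlap). All 6 measured of 7 hypertrophic chondrocyte markers had log2 fold changes above 0 (51.4% of all genes), with a median of 0.63 and Spp1 at 0.023. Their sum was mostly Spp1, at 4689 to 6321 CPM in wild type and 2806, 17015 and 3093 CPM in KO 1, KO 2 and KO 3. The other 5 summed to 764 to 920 CPM in wild type and, higher in each KO library, to 999.5 to 1439 CPM. Mmp13 was the largest of these 5 in each library, at 382 to 746 CPM in wild type and 660 to 1030 CPM in KO. Between genotypes Mmp13, Alpl and Col10a1 overlapped, and Panx3 and Pth1r did not. The 5 measured of 7 osteoblast markers summed to 609 to 1954 in wild type and 2901 to 3879 CPM in KO. Without Ibsp the sums overlapped (83.2 to 296 and 240 to 274 CPM). Most of that remainder was Alpl, at 78.0 to 281 CPM in wild type and 206 to 241 CPM in KO. Bglap2 was 0 in each wild-type library and 12.2, 9.31 and 7.95 CPM in KO 1, 2 and 3. Bglap was likewise 0 in wild type, and 11.8, 7.35 and 4.89 CPM in KO. Endothelial markers (3 of 8) summed to at most 52.4 CPM and adipocyte markers (2 of 6) to at most 51.9 CPM in any library, and Kdr, Tek, Tie1, Emcn, Vwf, Adipoq, Plin1, Cidec and Lep had no row. Of 7 skeletal muscle markers 0 had a row. The part of these cell markers in the results below was not tested. In bulk RNA, fewer chondrocytes and less of a transcript per chondrocyte cannot be told apart.

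The microRNA removed in the KO mice, miR-34a-5p, pairs with target transcripts mainly through its seed, bases 2 to 8. Its mature sequence (RefSeq, GRCm38.p6, chr4:150068473-150068494, plus strand) is shown because the seed, in capitals, defines the match that was searched in the 6 collagen transcripts.
miR-34a-5p: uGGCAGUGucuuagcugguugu
In the longest annotated 3′ UTR of each gene (GENCODE M21, 438 bases for Col2a1 to 1891 for Col11a1), the complement of the seed, CACTGCC, occurred in Col9a3 and in none of the other 5. A shorter match, to bases 2 to 7, was found in 1 of 4 Col11a1 transcripts with a coding sequence, which is not the one of longest 3′ UTR, and in both Col9a3 transcripts. Among 9349 measured genes with a 3′ UTR of at least 20 bases, 19.3% held the match to bases 2 to 8. The Col9a3 match begins near base 571 after the stop codon (mm10, chr2:180621979-180622008, plus strand), and the 30 bases around it are shown with the match in capitals.
Col9a3 site: tacacataaagCACTGCCtcacaatatgga
A match is a description of the sequence. It does not show that the microRNA acted there. Genes with a match had a median log2 fold change of 0.037, KO against wild type, and genes with no match to bases 2 to 7 one of 0.032.

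The comparison of the 3 KO with the 3 wild-type libraries asked which of the 6 chains differ in chondrocytes that lack miR-34a. All 6 had a log2 fold change above 0, as did 51.4% of all genes. The median of the 6 was 0.78, against 0.016 over all 10189 genes, and the single values ran from 0.32 for Col9a1 to 1.94 for Col11a2. In 4 of the 6 chains (Col9a2, Col9a3, Col11a1 and Col11a2) each KO library lay above each wild-type library, which held for 8.82% of all genes. The opposite, each KO library below each wild-type library, held for 0 of the 6 and 9.57% of all genes. A log2 fold change of at least 1, a 2-fold difference, was reached by Col11a2, Col9a2 and Col9a3 and by 7.35% of all genes. None of the 6 passed limma at an adjusted p below 0.05, nor did any other gene that was higher in KO (0%). At an unadjusted limma p below 0.05, the 3 chains of the largest difference were higher, as were 473 genes in all (4.64%). The quasi-likelihood test of edgeR and limma-voom on recovered reads called 0 of the 6, and DESeq2 called Col11a2 and Col9a2 (42 genes called higher, 0.413% of those given an adjusted p). With the authors' library sizes in place of its own size factors, a choice made after the data were seen, DESeq2 called Col11a2 alone of the 6 (26 genes, 0.796%) and gave Col9a2 no adjusted p.

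**Figure D1:**
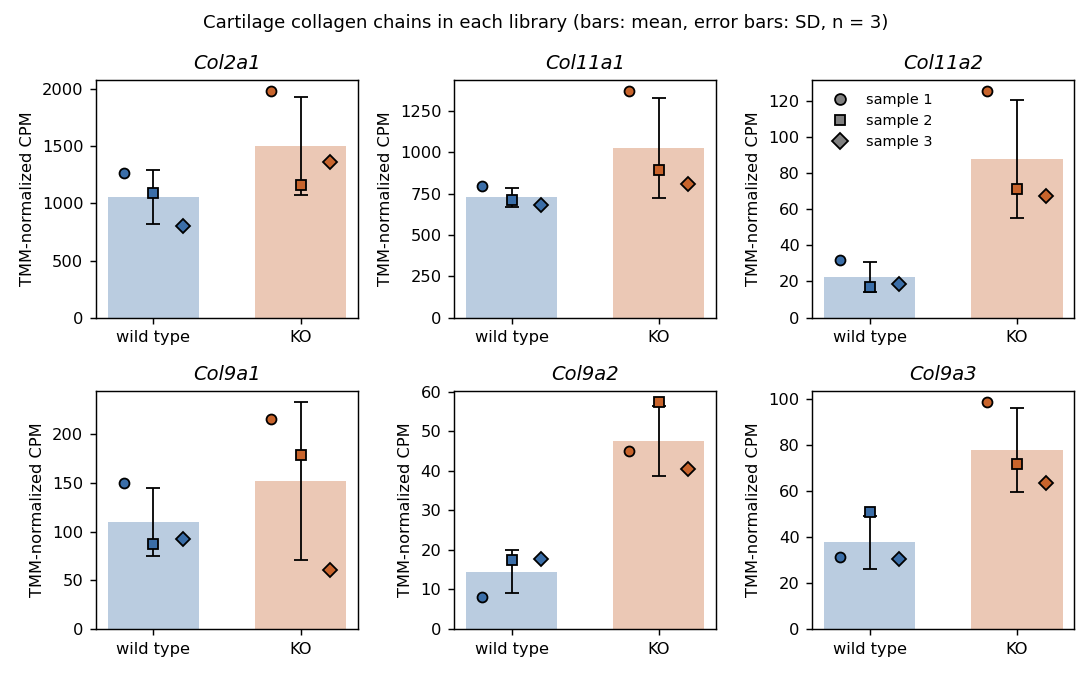
TMM-normalized CPM (y axis, from 0) of the 6 cartilage collagen genes in 3 wild-type (blue) and 3 KO (orange) libraries, with bars for the mean, error bars for the SD and a symbol for each sample. The KO and wild-type points do not overlap for Col11a2, Col9a2, Col9a3 and Col11a1, and overlap for Col2a1 and Col9a1.

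Col2a1 encodes the chain of collagen II and was the most abundant of the 6. It lies on chromosome 15 at 97975602 to 98004695 (mm10, minus strand). Its level was 1267, 1094 and 801 in wild type 1, 2 and 3 and 1985, 1159 and 1361 CPM in KO 1, 2 and 3. KO 1 stood highest, while KO 2 lay below wild type 1, so that the genotypes overlapped. The means in wild type and KO were 1054 ± 235 and 1501 ± 430.5 CPM (SD, n = 3 each). On the log2(CPM + 0.5) scale, which is used for all fold changes here and understates those of low genes, the difference was 0.50 (SE 0.26, 95% interval −0.10 to 1.09, limma adjusted p = 0.506). Without KO 1 it was 0.28 and without wild type 3 it was 0.31. These libraries rested on 1366 to 5200 reads of Col2a1, so that counting error was small beside the spread between samples.

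Col11a1 encodes the α1 chain of collagen XI, which is also found in hybrid fibrils with collagen V outside cartilage. The gene lies on chromosome 3 at 114030540 to 114220718 (plus strand). Its level was 793, 709 and 681 CPM in the wild-type libraries, the tightest group of any of the 6 genes with a coefficient of variation of 8.06%. In KO 1, 2 and 3 it was 1371, 894 and 809 CPM. Each KO library exceeded each wild-type library, though KO 3 exceeded wild type 1 by less than the counting error (95% intervals of 766 to 854 and 750 to 838 CPM). The log2 fold change was 0.46 (SE 0.23, 95% interval −0.06 to 0.98, limma adjusted p = 0.493), and 0.23 without KO 1.

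Col11a2 encodes the α2 chain of collagen XI and is more restricted to cartilage than Col11a1. It lies on chromosome 17 at 34039437 to 34066685 (plus strand). Its level was 32.04, 16.8 and 18.8 CPM in wild type 1, 2 and 3 (51, 22 and 32 reads), and 126, 71.0 and 67.3 CPM in KO 1, 2 and 3 (329, 145 and 110 reads). The lowest KO library was above the highest wild-type library, and the counting intervals of the nearest libraries, 55.3 to 81.1 CPM in KO 3 and 23.9 to 42.1 CPM in wild type 1 (exact Poisson, 95%), did not meet. These intervals cover counting error only. The means were 22.5 ± 8.31 in wild type and 88.0 ± 32.6 CPM in KO (SD, n = 3). The log2 fold change was 1.94 (SE 0.34, 95% interval 1.182 to 2.70), which corresponds to 3.84-fold, and it did not pass limma (adjusted p = 0.176). Among all genes higher in KO it had the 2nd smallest p. Leaving out each library in turn gave 1.65 (without KO 1) to 2.22 (without wild type 1). Its DESeq2 adjusted p was 6.68e-04, and over all alternatives the adjusted p ranged from 3.40e-04 to 0.457.

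Col9a1 encodes the α1 chain of collagen IX, without which the collagen IX molecule is known not to assemble. The gene lies on chromosome 1 at 24177610 to 24252684 (plus strand). Its level was 150, 86.9 and 92.6 in wild type 1, 2 and 3 and 216, 179 and 60.6 CPM in KO 1, 2 and 3. KO 1 and KO 2 were the highest of the 6 libraries and KO 3 the lowest, the only 1 of the 6 chains in which a KO library was at the bottom. The log2 fold change of 0.32 (SE 0.44, 95% interval −0.68 to 1.31, limma adjusted p = 0.801) was within that spread. It was −0.032 without KO 1 and 0.88 without KO 3.

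Col9a2 encodes the α2 chain of collagen IX and was the least abundant of the 6 by CPM. It lies on chromosome 4 at 121039385 to 121055322 (plus strand), the chromosome that also carries Mir34a. Its level was 8.17, 17.5 and 17.6 CPM in wild type 1, 2 and 3, from 13, 23 and 30 reads, and 45.03, 57.3 and 40.4 CPM in KO 1, 2 and 3, from 118, 117 and 66 reads. The genotypes did not overlap, and KO 2, not KO 1, was the highest. The counting interval of wild type 1 was 4.35 to 14 CPM, which met that of wild type 2 at 11.1 to 26.3 CPM. The log2 fold change was 1.75 (SE 0.35, 95% interval 0.95 to 2.55), that is 3.37-fold, with a limma adjusted p of 0.238. Without wild type 1 it was 1.40, the lowest value when each library was left out in turn, and 1.26 with wild type 1 and KO 2 both left out. DESeq2 gave an adjusted p of 0.0127, and the range over all alternatives that gave one was 0.0127 to 0.457.

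Col9a3 encodes the α3 chain of collagen IX and lies on chromosome 2 at 180597790 to 180622189 (plus strand). Its level was 31.4, 51.0 and 30.5 in wild type 1, 2 and 3 and 98.5, 71.5 and 63.6 CPM in KO 1, 2 and 3. Each KO library was above each wild-type library, though the counting interval of wild type 2 (39.6 to 64.8 CPM) met those of KO 3 (52.0 to 77.1 CPM) and KO 2 (60.4 to 84.1 CPM). The log2 fold change was 1.05 (SE 0.28, 95% interval 0.42 to 1.69, limma adjusted p = 0.281), and 0.87 to 1.29 when each library was left out in turn. DESeq2 gave an adjusted p of 0.129, and 0.0560 with the authors' library sizes. At its end it shares exon bases with Tcfl5, a transcription factor gene on the opposite strand, over 234 bases (180621956 to 180622189, 6.07% of its exon bases). The miR-34a-5p seed match printed above lies within that stretch. No source used here states the strand setting of the counting, so that reads of Col9a3 and Tcfl5 in this stretch cannot be told apart. Tcfl5 had 13.8, 28.2 and 8.79 in wild type 1, 2 and 3 and 62.2, 30.9 and 22.0 CPM in KO 1, 2 and 3 (a limma log2 difference of 1.179, SE 0.50, adjusted p = 0.429). No other gene of the 6 shares exon bases with an annotated gene on either strand.

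**Figure D2:**
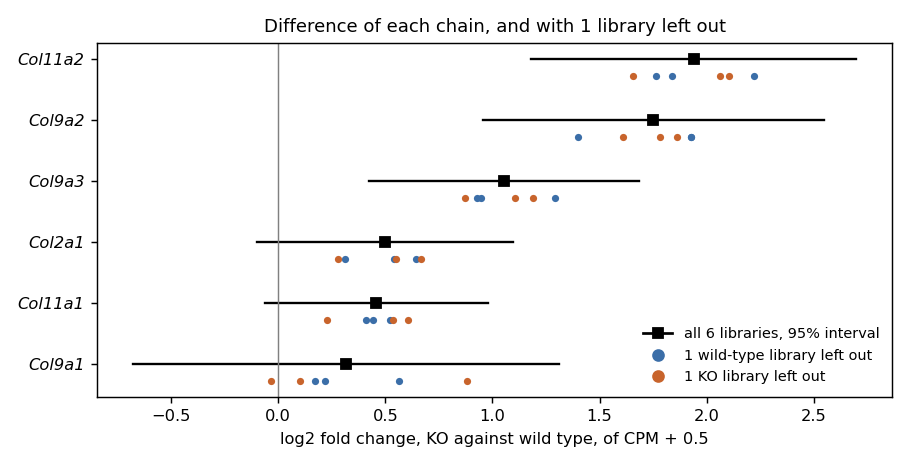
Log2 fold change of CPM + 0.5, KO against wild type (x axis), for each of the 6 genes, as the estimate from all 6 libraries with its 95% interval (black) and with 1 wild-type (blue) or 1 KO (orange) library left out. The intervals of Col11a2, Col9a2 and Col9a3 lie above 0, and that of Col9a1 is the widest and its estimate crosses 0 without KO 1.

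KO 1 had the highest level of 5 of the 6 chains and wild type 3 the lowest level of 3. KO 1 also had the lowest macrophage and leukocyte sum and the highest sum of chondrocyte markers. In KO 2 the macrophage and leukocyte sum was the highest of the 6 libraries, and the 6 chains there were at 1159 CPM for Col2a1, 894 for Col11a1, 71.0 for Col11a2, 179 for Col9a1, 57.3 for Col9a2 and 71.5 for Col9a3.

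Divided by transcript length, the levels of the 6 genes can be set beside each other. In wild type the order of CPM per kilobase of the longest annotated transcript was Col2a1 (206.5 ± 46.1, SD, n = 3), Col11a1 (94.9 ± 7.65), Col9a1 (28.7 ± 9.13), Col9a3 (12.4 ± 3.81), Col9a2 (4.93 ± 1.85) and Col11a2 (3.72 ± 1.37). In KO it was Col2a1 (294 ± 84.3), Col11a1 (134 ± 39.5), Col9a1 (39.6 ± 21.1), Col9a3 (25.6 ± 6.00), Col9a2 (16.3 ± 3.00) and Col11a2 (14.5 ± 5.39). The order of the means was the same in both genotypes. Col9a2 and Col11a2 did not differ beyond their spread in either genotype. In KO, Col9a1 in KO 3 (15.8) was below Col9a3 in the same library (20.9), so that this pair of neighbours overlapped there. Of the summed level per length of all 6 chains, Col2a1 held 58.4% ± 3.59 in wild type and 56.2% ± 5.23 in KO, and Col11a1 27.4% ± 2.94 and 25.5% ± 0.990 (SD, n = 3). Col11a2 held 1.29%, 0.781% and 1.07% in the wild-type libraries and 3.00%, 2.64% and 2.56% in KO, and Col9a2 0.683%, 1.69% and 2.08% and then 2.22%, 4.4% and 3.18%. These were the 2 chains whose share did not overlap between genotypes. The gap was narrow for Col9a2, with 2.08% in wild type 3 and 2.22% in KO 1. No background over all genes was computed for this measure. With the union of all exons as the length, the wild-type level of Col9a2 relative to Col2a1 was 0.0442 instead of 0.0259 and that of Col11a2 0.0287 instead of 0.0180, with no change in the order.

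A ratio of 2 chains within a library, before a pseudocount is added, does not depend on how the library was scaled. All 15 pairs of the 6 chains were compared between genotypes, together with Col2a1 to Col1a1. With 3 against 3 libraries the exact permutation test (two-sided) cannot go below 0.10, and after adjustment over the 16 ratios the lowest p was 0.229, so that none could pass. In 6 of the 15 pairs the KO and wild-type values did not overlap, each with an exact permutation p of 0.10. All 6 set Col11a2 or Col9a2 against Col2a1, Col11a1 or Col9a1, so that they are not 6 separate results. The share over all genes was computed for the ratio to Col2a1 alone (1.21% higher in each KO library, given below). With a pseudocount of 2 CPM, 4 of the 15 did not overlap, and Col9a2 to Col2a1 and Col9a2 to Col9a1 did.

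The ratio of the 2 collagen XI genes, Col11a2 to Col11a1, did not overlap between KO and wild type. Per length, Col11a2 was 0.0512, 0.0300 and 0.0349 of Col11a1 in wild type 1, 2 and 3, and 0.116, 0.101 and 0.105 in KO 1, 2 and 3. The 3 KO libraries were close to each other and all above wild type. Read the other way, Col11a1 exceeded Col11a2 by 19.5-fold to 33.4-fold in wild type and by 8.62-fold to 9.93-fold in KO. The difference of the log2 ratio was 1.48 (SE 0.23, exact permutation p = 0.10, adjusted p = 0.229), higher in 3 of 3 KO libraries, and 1.32 to 1.70 when each library was left out in turn. Col11a2 to Col2a1 differed by 1.44 (SE 0.25, exact permutation p = 0.10), from 0.0129 to 0.0214 per length in wild type to 0.0417 to 0.0534 in KO. Over all 10188 other genes, the ratio to Col2a1 was higher in each KO library than in each wild-type library for 1.21%, and among the 5 other chains for Col11a2 and Col9a2. The gap for Col9a2 was narrow, with 0.0383 per length in wild type 3 and 0.0396 in KO 1, and its log2 difference of 1.252 (SE 0.61, exact permutation p = 0.10) was 0.75 without wild type 1. Col11a1 to Col2a1 was 0.417, 0.432 and 0.566 in wild type and 0.460, 0.514 and 0.396 in KO, an overlap with a log2 difference of −0.041 (SE 0.18, exact permutation p = 0.90).

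**Figure D3:**
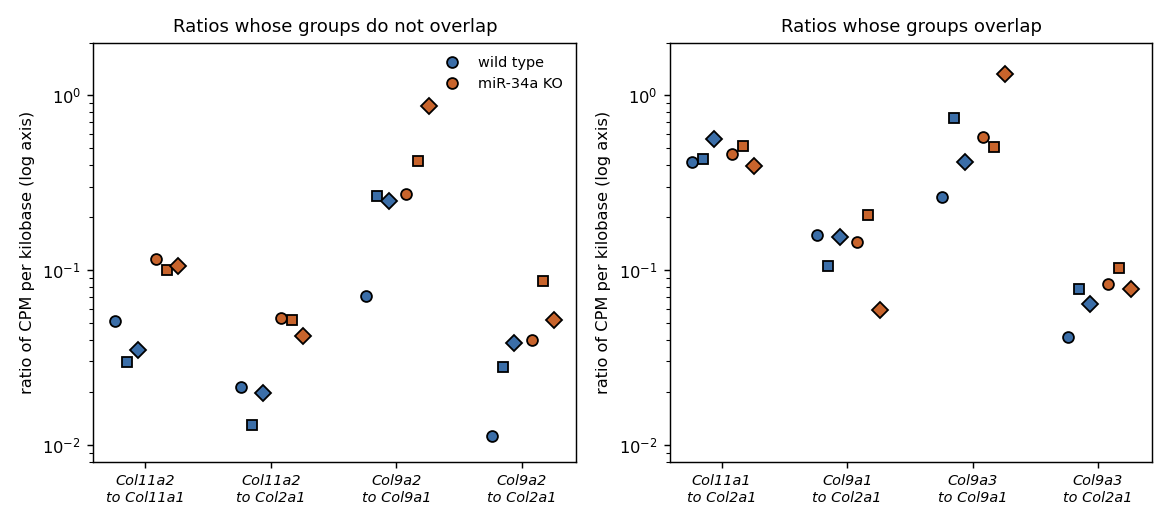
Ratios of CPM per kilobase of transcript between 2 chains (y axis, log scale) in each library, with wild type in blue and KO in orange and a symbol for each sample number. Col11a2 to Col11a1 runs from 0.0300 to 0.0512 in wild type and from 0.101 to 0.116 in KO, while Col11a1 to Col2a1 lies between 0.396 and 0.566 in all 6 libraries.

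Within collagen IX, 1 of the 3 ratios between chains, Col9a2 to Col9a1, did not overlap between genotypes. Col9a2 was 0.0713, 0.264 and 0.249 of Col9a1 per length in wild type 1, 2 and 3 and 0.274, 0.420 and 0.874 in KO 1, 2 and 3. The groups did not overlap, but KO 1 lay just above wild type 2. The log2 difference was 1.43 (SE 0.77, exact permutation p = 0.10), and 0.83 without wild type 1, the library with the fewest Col9a2 reads. Col9a3 to Col9a1 was 0.263, 0.740 and 0.414 in wild type and 0.575, 0.503 and 1.32 in KO, a log2 difference of 0.74 (SE 0.61, exact permutation p = 0.40) with overlap. KO 3, in which Col9a1 was lowest, gave the highest value of both ratios. Col9a3 to Col9a2 was 3.69, 2.80 and 1.66 in wild type and 2.099, 1.198 and 1.51 in KO, a log2 difference of −0.70 (SE 0.40, exact permutation p = 0.20) with overlap. Col11a2 to Col9a2, the pair of lowest level, differed by 0.19 on the log2 scale (SE 0.72, exact permutation p = 0.80), and leaving out KO 1, wild type 2 or wild type 3 turned it to −0.13, −0.16 and −0.088.

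**Figure D4:**
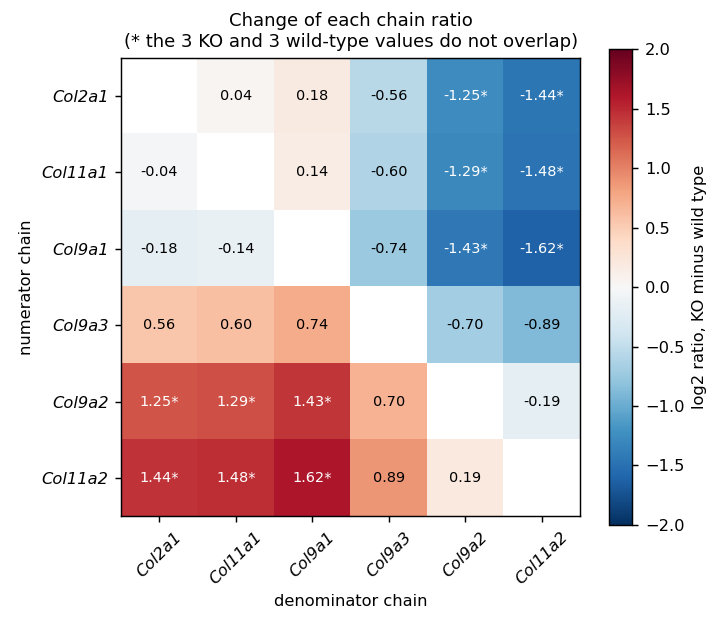
Difference of the log2 ratio between each pair of chains (row over column), KO minus wild type, coloured from blue (lower in KO) to red (higher in KO), with an asterisk where the 3 KO and 3 wild-type values do not overlap. Col11a2 and Col9a2 are higher against Col2a1, Col11a1 and Col9a1, by 1.252 to 1.62, and Col2a1, Col11a1 and Col9a1 differ among themselves by at most 0.18.

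The ratio of Col2a1 to Col1a1 is a usual measure of how far cultured chondrocytes keep their cartilage character. Col1a1, which encodes the main chain of collagen I of bone and fibrous tissue, had 415, 490 and 354 in wild type 1, 2 and 3 and 251, 318 and 291 CPM in KO 1, 2 and 3. Per length, Col2a1 to Col1a1 was 3.54, 2.60 and 2.63 in wild type and 9.18, 4.24 and 5.43 in KO, with no overlap. The log2 difference was 1.04 (SE 0.36, exact permutation p = 0.10, adjusted p = 0.229), higher in 3 of 3 KO libraries. Without KO 1 it was 0.73. No share over all genes was computed for this ratio. Col1a2, the other collagen I gene, had 1273, 1778 and 1299 in wild type and 1949, 1258 and 1779 CPM in KO. Its limma log2 difference was 0.19 (SE 0.24), with overlap. The ratio of Col2a1 to Col1a2 was not computed. The mural marker sum was lower and the osteoblast marker sum higher in each KO library, as given above. Their part in the ratio of Col2a1 to Col1a1 was not tested.

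Promoter windows from 250 bases before to 50 bases after the start were given for Col9a1 (2 starts), Col9a2, Col11a1 and Col11a2 in the RefSeq table (GRCm38.p6). The windows of Col11a2 (chr17:34038888-34039187) and Col9a2 (chr4:121039316-121039615), both on the plus strand, are shown because these are the chains of the ratios that did not overlap. The RefSeq start of Col11a2 lies 299 bases before the gene start given above from GENCODE and that of Col9a2 181 bases after it, so that the windows are placed by RefSeq and not by those gene bounds. Capitals mark matches, on either strand, to the GC box GGGCGG, bound by Sp1-like factors, and to the TATA box TATAAA.
Col11a2 promoter: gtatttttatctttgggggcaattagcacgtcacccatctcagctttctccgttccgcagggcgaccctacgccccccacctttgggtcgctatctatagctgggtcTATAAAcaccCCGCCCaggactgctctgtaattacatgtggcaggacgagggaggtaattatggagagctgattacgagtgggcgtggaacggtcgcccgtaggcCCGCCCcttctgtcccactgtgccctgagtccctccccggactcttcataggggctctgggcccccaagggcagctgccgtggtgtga
Col9a2 promoter: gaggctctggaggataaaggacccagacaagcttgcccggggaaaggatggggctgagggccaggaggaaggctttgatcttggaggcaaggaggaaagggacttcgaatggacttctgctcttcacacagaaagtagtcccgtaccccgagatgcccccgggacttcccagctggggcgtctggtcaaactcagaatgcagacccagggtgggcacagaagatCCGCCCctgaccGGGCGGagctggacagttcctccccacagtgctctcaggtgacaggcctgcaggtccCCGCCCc
Col9a2 held 3 GC boxes, Col11a2 and Col11a1 2 each, and the 2 Col9a1 windows none, against 35.7% of all 32851 windows with at least 1. The TATA box occurred in Col11a2 (13.6% of all windows). The core ACAAT of SOX factors, known activators of cartilage collagen genes, occurred in none of the 5 (31.0% of all windows). The GC content was 59.0% for Col11a2, 61.7% for Col9a2, 62.3% for Col11a1 and 47.3% and 55.7% for the Col9a1 windows, against a median of 52.7%. These matches are descriptions of the letters and say nothing about binding.

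Genes that act with the cartilage collagens were grouped by role, and limma called 0 of them in any group at an adjusted p below 0.05 over all genes. Of 11 genes listed as transcriptional activators, 6 had a row, and all 6 had a log2 fold change above 0 (51.4% of all genes). Their median was 0.34, against 0.016 over all genes. The smallest values were those of Runx2 (0.0058, SE 0.28), Foxc1 (0.13, SE 0.26) and Trps1 (0.16, SE 0.22). Activators that passed at an unadjusted limma p below 0.05 numbered 0 (4.64% of all genes higher and 6.40% lower). Sox9, the factor that drives the cartilage collagen genes, had 14.4, 8.38 and 11.7 in wild type and 24.8, 15.2 and 15.3 CPM in KO, a narrow separation (limma difference 0.65, SE 0.39, adjusted p = 0.547). Its partners Sox6 (0.53, SE 0.54) and Sox5 (0.52, SE 0.63) overlapped between genotypes. KO 2, with 10.8 CPM of Sox6, was below all 3 wild-type libraries, and with 6.86 CPM of Sox5 it was below 2 of the 3.

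Of 13 other collagens, 6 had log2 fold changes above 0 (51.4% of all genes) and 7 below (median −0.17). At an unadjusted limma p below 0.05, 1 was higher and 3 lower, against 4.64% and 6.40% of all genes. DESeq2 called 1 higher (Col27a1) and 1 lower (Col3a1), against 0.413% and 0.718%. Col27a1, a fibrillar collagen gene of cartilage, had 34.5, 28.9 and 20.52 in wild type and 116, 56.3 and 57.5 CPM in KO (a limma log2 difference of 1.38, SE 0.34, adjusted p = 0.273, DESeq2 adjusted p = 0.0379). Col3a1, a collagen gene of soft connective tissue, had 4063, 2785 and 4346 in wild type and 1981, 1573 and 2277 CPM in KO (a limma log2 difference of −0.93, SE 0.26, adjusted p = 0.282, DESeq2 adjusted p = 0.0138). Neither gene overlapped between genotypes. For Col1a1 the limma log2 difference was −0.54 (SE 0.19, adjusted p = 0.354).

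Of 14 measured genes for partners of the fibril, 11 had log2 fold changes above 0 (51.4% of all genes) and 3 below, with a median of 0.45. At an unadjusted limma p below 0.05, 5 were higher (4.64% of all genes). DESeq2 called 3 higher (0.413% of all genes), Fmod, Lum and Acan, which encode the small proteoglycans fibromodulin and lumican and the large proteoglycan aggrecan. Lum had 443, 289 and 388 in wild type and 937, 550 and 650 CPM in KO, with no overlap (a limma log2 difference of 0.92, SE 0.25, adjusted p = 0.281). Fmod and Acan had 1.27 (SE 0.34) and 1.17 (SE 0.33).

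Of 20 measured genes of collagen folding and modification in the endoplasmic reticulum, 16 had log2 fold changes above 0 (51.4% of all genes). The 20 had a median of 0.22. In either direction 0 of them passed at an unadjusted limma p below 0.05 (4.64% higher and 6.40% lower over all genes). The genes of smallest p were P3h4 (0.49, SE 0.24) and Plod1 (0.29, SE 0.17), which act in hydroxylation of collagen lysines, and P4ha2 (−0.40, SE 0.26), a subunit of prolyl 4-hydroxylase. Of 9 genes of procollagen cleavage and crosslinking, 3 were above 0 (51.4% of all genes) and 6 below (median −0.26). Pcolce2, an enhancer of procollagen C-proteinase, had 3.14, 8.38 and 12.9 in wild type and 56.5, 23.5 and 20.8 CPM in KO (a limma log2 difference of 2.02, SE 0.57, adjusted p = 0.282). Its relative Pcolce had 0.48 (SE 0.22), and Loxl2, a lysyl oxidase gene, had −0.80 (SE 0.22, limma adjusted p = 0.281).

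Of 6 measured receptors, 5 had log2 fold changes above 0 (51.4% of all genes), with a median of 0.28. Itga10, the integrin chain typical of chondrocytes, had 3.77, 6.10 and 6.45 in wild type and 20.2, 20.6 and 9.18 CPM in KO (a limma log2 difference of 1.48, SE 0.52, adjusted p = 0.351). Itga11 and Ddr2 overlapped between genotypes, with 0.44 (SE 0.26) and 0.35 (SE 0.24). Of 5 collagen-degrading proteases, 2 were above 0 (51.4% of all genes) and 3 below (median −0.17). Mmp13, the main collagenase acting on collagen II, had 0.72 (SE 0.28, limma adjusted p = 0.394) with overlap. Mmp8, a collagenase abundant in neutrophils, had −2.04 (SE 0.50, limma adjusted p = 0.273) and was called lower by DESeq2 (adjusted p = 0.0461). Mmp14 had −0.19 (SE 0.22) and overlapped.

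**Figure D5:**
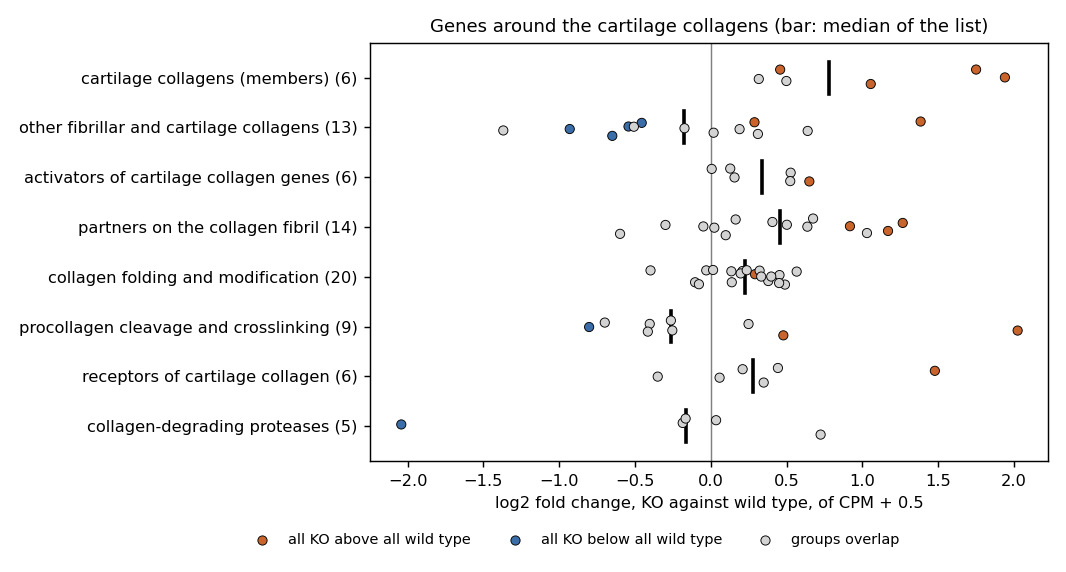
Log2 fold change of CPM + 0.5, KO against wild type (x axis), for each measured gene of the 8 lists (y axis, with the number measured), with a black bar for the median and orange or blue for genes whose groups do not overlap. The 6 cartilage collagens have a median of 0.78 and the 13 other collagens one of −0.17.

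The genes whose profile over the 6 libraries was most like the mean standardised profile of the 6 chains were taken from 8690 other genes with a mean of at least 10 CPM, by Pearson r. They were Ccng1, the gene of cyclin G1 (r = 0.990), Fam135a (0.986), Col27a1 (0.977), Atad1 (0.976), Smpd5 (0.975) and Aga, a lysosomal enzyme gene (0.975). All 6 were highest in KO 1, as 5 of the 6 collagen chains were. With 6 libraries and 8690 genes, values this high are a description of the ranking and carry no test.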

How the data were processed

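The signal deposited by the authors is TMM-normalized CPM per gene and library, after a filter whose rule no source used here states. Per the submitters' processing notes, the build was mm10 and the tools included HISAT2 2.1.0, cutadapt 1.18, edgeR, bcl2fastq and StringTie 1.3.5, with no roles given. Dividing by the value of 1 read gave whole reads for 100% of values per library (tolerance 0.001 reads). 1 column name differed from its sample title by 1 character. 0 columns were left unmapped. KO was compared with wild type (n = 3 each) over all 10189 genes on log2(CPM + 0.5), by the two-sided moderated test of limma 3.58.1 with a mean-variance trend in R 4.3.3. P-values were adjusted by Benjamini and Hochberg and called below 0.05. edgeR 4.0.16, DESeq2 1.42.0 and limma-voom on recovered reads were alternatives. Simulated data with known fold changes were used to check the size and sign of the fitted fold changes, not the share called. Ratios were tested by exact permutation over samples, and SEs of ratio differences come from the group SDs. Lengths, exons and 3′ UTRs came from GENCODE M21, and promoters and the miRNA from RefSeq (Python 3.11.15, scipy 1.17.1).

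The 6 genes and the gene lists were chosen with earlier results of these data known. Named genes were the 6 members, up to 3 genes of smallest p per pathway list, the 6 most like the members, and genes sharing exon bases with a member. Some other genes of the lists, Col1a2 and Runx2 among them, were named beside these.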

Additional observations from a re-analysis of the deposited data

How the results depend on the processing

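Of 90 alternative values of the 6 fold changes, 89 were above 0, leaving out 4 settings that keep the fold change by construction. The exception was Col9a1, whose log2 fold change ran from −0.032 to 0.88 when each library was left out. Of 128 alternative ratio differences, pairing by number left out, 8 changed sign, all in pairs whose groups overlapped, when 1 library was left out: Col11a1 to Col9a1 (−0.27 to 0.43), Col11a2 to Col9a2 (−0.16 to 0.82), Col11a1 to Col2a1 (−0.13 to 0.097) and Col9a1 to Col2a1 (−0.56 to 0.33). The cause was not tested.

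Limma called 0 genes higher and 1 lower over all genes. The counts were 0 and 2 with a pseudocount of 2, 7 and 3 without a trend, 1 and 3 with robust empirical Bayes, 0 and 2 with edgeR, 42 and 73 with DESeq2, 26 and 102 with DESeq2 and the authors' library sizes (added after the data were seen), and 0 and 2 without wild type 1 and KO 2. When each library was left out they were 0 to 7 and 0 to 25, the highest without KO 2. Of the 6 chains, DESeq2 called 2, or 1 with the authors' library sizes, and every other setting called 0. Low reads of Col9a2 and Col11a2 in wild type limit their precision.

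With the replicate block the counts were 0 and 0. Deviations of same-numbered samples correlated at 0.0325, 0.0819 and −0.0564, so that the numbers were not taken to pair the samples. Paired by number, 11 of 16 ratios had the same sign in 3 of 3 pairs.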
